A study of Homo sapiens with 12 samples.

Results

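The 43 genes described here encode proteins that build the mitotic spindle, attach it to chromosomes, time anaphase and divide the cell. They were chosen as a named list and are 43 of the 57500 genes counted, and all 43 had enough reads to be tested. The libraries come from OE33, an epithelial cell line of human esophageal adenocarcinoma, in 4 groups of 3. rABS+shAPE1 (shAPE1 from here on) and rABS+shCtrl (shCtrl) are cells that survived repeated acidified bile salts and then stably received a short hairpin RNA against APE1 or a non-targeting one. The rABS cells survived the same exposure and carry no vector: 20 minutes a day in a 200 µM bile salt mixture at pH 5.5, for 15 days. Parental cells are untreated. The series asked what APE1, a DNA base repair endonuclease and redox regulator encoded by APEX1, contributes to the expression state after reflux-like exposure. No group was mock-treated over the 15 days, so exposure, survival and time in culture cannot be told apart. The labels name a single APE1 hairpin, so loss of APE1 and other effects of that hairpin cannot be told apart either. The sources used here do not name the vector or its promoter, or say whether clones or pools were kept.

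Mitosis starts when cyclin B and the kinase CDK1 become active. Kinetochores then bind spindle microtubules, and the spindle checkpoint holds back the anaphase-promoting complex (APC/C) until each chromosome is attached. The APC/C then destroys securin and cyclin B, which frees separase to cut the cohesin that joins sister chromatids. Transcription of most of these genes peaks in G2 and mitosis. It is driven by FOXM1 and the MuvB complex with B-MYB, and held down outside that window by the DREAM repressor.

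Library totals ran from 15736087 to 23010377 counts, and a gene on the list had between 90 (NUF2) and 24059 (MKI67) counts in a library. Levels are scaled counts in CPM, the usual depth-normalised unit, and fold changes carry their standard error (SE). A gene is called where the edgeR quasi-likelihood test, adjusted by Benjamini-Hochberg over the 15805 genes tested, gave a value under 0.05. APEX1 itself stood at 4.42, 4.5 and 5.88 CPM in shAPE1 and at 62, 56.5 and 60.9 CPM in shCtrl. It stood at 81.8, 84.5 and 79.9 CPM in rABS and at 52.9, 54.3 and 56.9 CPM in Parental, so shAPE1 held 8.2% of the shCtrl level (adjusted p = 3.75e-22). Epithelial markers were abundant throughout, with CDH1 at 647 to 1003 CPM and KRT19 at 5741 to 12921 CPM. PTPRC, CD3E, COL3A1, PDGFRB, PECAM1 and VWF, markers of blood, stromal and endothelial cells, stayed at or under 0.842 CPM, and COL1A1 ranged from 3.33 to 29.4 CPM.

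Mitosis genes were mostly higher in the exposed survivors and mostly lower with the APE1 hairpin. Between rABS and Parental, 30 of the 43 rose, 6 fell and 7 were not called, where 29.9% of all tested genes rose and 29.9% fell. Their median log2 fold change was 0.41, against -0.01 over all genes. Between shAPE1 and shCtrl, 2 rose, 37 fell and 4 were not called, where 17.8% of all genes rose and 18.8% fell. The median there was -0.46, against -0.02 over all genes. The transduced control moved both ways from rABS: 13 of 43 rose and 10 fell, where 17.9% and 18.6% of all genes did. The 13 rises dropped to 7 without shCtrl replicate 1 and to 8 without rABS replicate 1 or rABS replicate 3. Against Parental, shAPE1 cells had 13 of 43 higher and 11 lower, where 26.2% of all genes were higher and 27.5% lower. In that last comparison the shares of the 43, 30.2% higher and 25.6% lower, lie near those of all genes.

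Summed over the 43 genes, the level was 4146, 3832 and 4325 CPM in shAPE1 and 5702, 5245 and 5426 CPM in shCtrl. It was 5507, 5379 and 5602 CPM in rABS and 3754, 4041 and 3826 CPM in Parental. The shAPE1 and Parental libraries overlapped in this sum, and all of them lay below every shCtrl and rABS library. In libraries made from whole cultures, fewer cells in mitosis and less of each RNA per mitotic cell cannot be told apart. Parental had the lowest mean of the 4 groups for 24 genes, shAPE1 for 15 and rABS for 4. Within shAPE1, replicate 2 was the lowest library for 34 of the 43 genes, and within shCtrl, replicate 2 was the lowest for 28 and replicate 1 the highest for 30. These counts of lowest and highest were not taken over all genes tested, so a trait of the 43 and a general trait of the libraries or groups cannot be told apart. Whichever of the 12 libraries was left out, 35 to 37 of the 43 fell between shAPE1 and shCtrl.

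**Figure D1:**
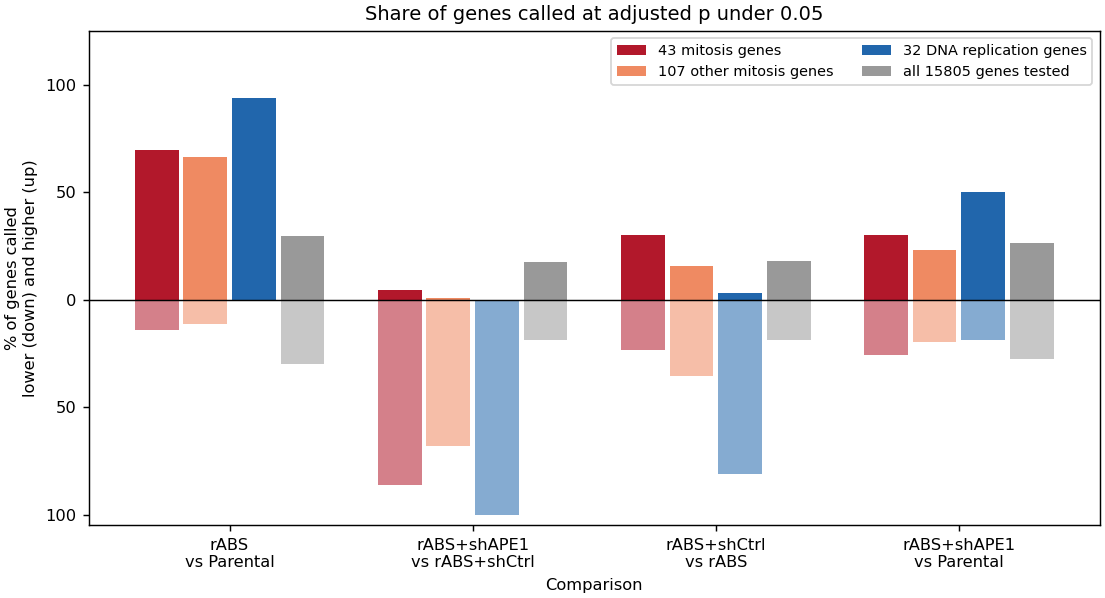
Percentage of genes called higher (bars up) and lower (bars down, paler) at adjusted p under 0.05 in each comparison, for the 43 mitosis genes, 107 other mitosis genes, 32 DNA replication genes and all 15805 genes tested. The 43 genes rise in 69.8% of cases between rABS and Parental and fall in 86% between shAPE1 and shCtrl, against 29.9% and 18.8% of all genes.

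The comparisons of rABS with Parental and of shAPE1 with shCtrl share no library. Of the 30 genes that rose between rABS and Parental, 27 fell between shAPE1 and shCtrl, ESPL1 rose in both, and AURKB and CDCA8 were not called in the second. With 37 of the 43 lower in the second comparison, most of the 30 would be among them whatever their rise. The share of all genes with both calls was not counted. Of the 6 that fell between rABS and Parental (CCNB2, NEK2, BUB1, PTTG1, CENPA and KIF2C), 5 also fell between shAPE1 and shCtrl, and CENPA was not called. Of the 7 not called between rABS and Parental, TTK, NDC80, NUF2, CENPE and CENPF fell between shAPE1 and shCtrl, KIF20A rose, and PLK1 was not called. The size of a gene's rise had little relation to the size of its fall: over the 43 genes Pearson's r was 0.21 and Spearman's rho 0.04, given as a description across genes that share libraries. Over all 15805 genes tested r was -0.11 and rho -0.13.

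**Figure D2:**
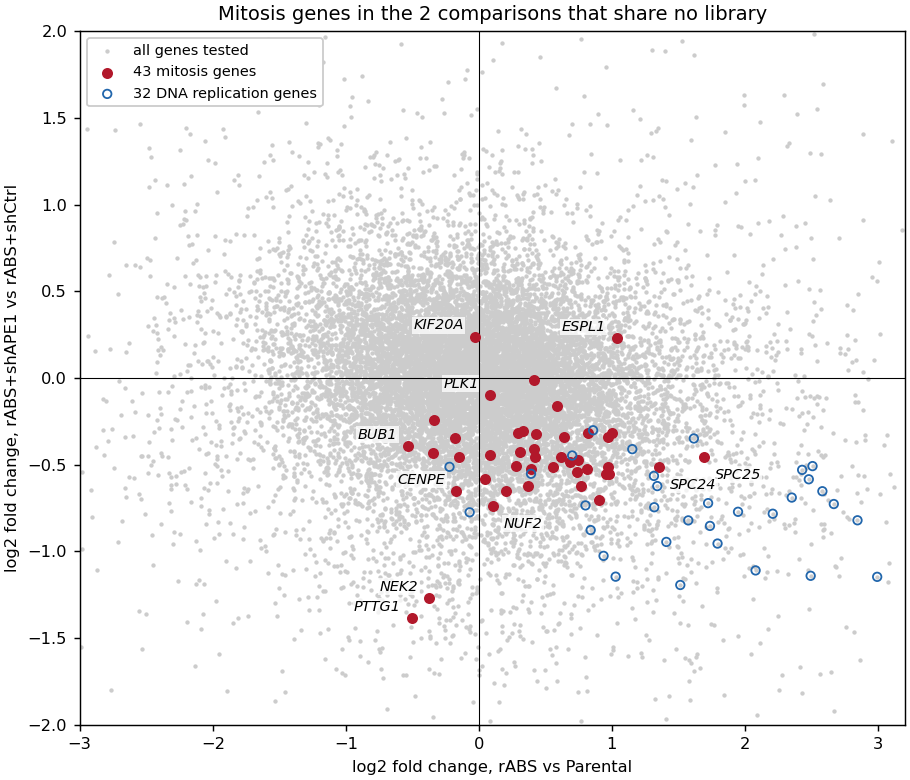
log2 fold change between rABS and Parental (x axis) against that between shAPE1 and shCtrl (y axis), one point per gene; red points are the 43 mitosis genes, open blue circles 32 DNA replication genes and grey points all 15805 genes tested, of which 215 lie outside the axes. Most red points lie right of 0 and below 0; among them NEK2 and PTTG1 lie lowest, and SPC25 and SPC24 furthest right.

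The shAPE1 falls were also set against rABS cells without a vector, a comparison added after the data were seen. There 34 of the 43 genes were lower, 2 were higher and 7 were not called, where 26.2% of all genes were lower and 23.8% higher. The 7 not called were CCNB1, PLK1, BUB1, CENPA, CENPE, CENPF and PRC1. Of the 37 genes that fell against shCtrl, 31 also fell against rABS. Of the 39 genes called against shCtrl, 3 had the opposite sign against rABS: ESPL1 was lower than in rABS (log2 -0.27), CCNB2 was higher (0.22), and BUB1 stood at 0.16 without a call. CENPA, called against neither, stood at -0.24 against shCtrl and at 0.06 against rABS.

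Promoters of such genes are known for 2 short elements, the CHR (cell cycle genes homology region; TTTGAA, or TTCAAA on the other strand), which the MuvB complex binds, and the CCAAT box (CCAAT or ATTGG), which NF-Y binds. RefSeq windows on GRCh38.p14, from 250 bases before to 50 after an annotated start, were found for 36 of the 43 genes, 42 windows in all; UBE2C, AURKA, BUB3, TTK, FOXM1, TPX2 and BIRC5 had none. A CHR occurred in 64.3% of the 42 windows, against 15.2% of all 35116 windows, and a CCAAT box in 71.4%, against 34.6%. Both occurred in 45.2%, against 5.9%. The median CHR match lay at -29 from the start and the median CCAAT box at -76.5. The 5 windows printed here open with genes that hold both elements. These are CCNB2, which fell in both leading comparisons, PLK1, called in none, and SPC25, the largest rise between rABS and Parental. Then come 2 genes with CCAAT boxes and no TTTGAA. They are PTTG1, the largest fall with the hairpin, and KIF20A, which rose with it. Capitals mark CHR and CCAAT matches on either strand, and each window is written 5′ to 3′ on the gene's own strand.
CCNB2, chr15:59104896-59105195, plus strand: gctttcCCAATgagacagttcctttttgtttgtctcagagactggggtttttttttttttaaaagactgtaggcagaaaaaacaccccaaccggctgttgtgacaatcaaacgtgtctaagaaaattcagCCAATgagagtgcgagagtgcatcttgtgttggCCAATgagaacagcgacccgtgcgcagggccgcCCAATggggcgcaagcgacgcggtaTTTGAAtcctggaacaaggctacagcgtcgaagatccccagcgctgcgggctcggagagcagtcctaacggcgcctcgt
PLK1, chr16:23678639-23678938, plus strand: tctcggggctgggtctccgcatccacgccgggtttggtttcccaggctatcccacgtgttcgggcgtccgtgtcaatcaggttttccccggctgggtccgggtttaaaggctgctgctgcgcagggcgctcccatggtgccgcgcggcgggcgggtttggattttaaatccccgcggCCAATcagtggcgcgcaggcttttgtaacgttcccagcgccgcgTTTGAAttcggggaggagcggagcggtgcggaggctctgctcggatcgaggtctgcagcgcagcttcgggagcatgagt
SPC25, chr2:168890381-168890680, minus strand: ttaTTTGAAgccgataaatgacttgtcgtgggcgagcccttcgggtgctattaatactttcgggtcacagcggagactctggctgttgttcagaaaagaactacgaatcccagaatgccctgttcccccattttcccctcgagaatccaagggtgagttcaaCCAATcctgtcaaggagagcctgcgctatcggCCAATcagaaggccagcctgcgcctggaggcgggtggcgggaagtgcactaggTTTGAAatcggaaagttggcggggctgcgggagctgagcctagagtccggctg
PTTG1, chr5:160421605-160421904, plus strand: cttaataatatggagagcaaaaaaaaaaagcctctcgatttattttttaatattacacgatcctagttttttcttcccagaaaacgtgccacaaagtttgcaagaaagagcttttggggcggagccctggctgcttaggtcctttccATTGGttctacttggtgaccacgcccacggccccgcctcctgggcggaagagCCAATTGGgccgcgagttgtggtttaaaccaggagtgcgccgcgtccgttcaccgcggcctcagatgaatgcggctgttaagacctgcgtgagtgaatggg
KIF20A, chr5:138178862-138179161, plus strand: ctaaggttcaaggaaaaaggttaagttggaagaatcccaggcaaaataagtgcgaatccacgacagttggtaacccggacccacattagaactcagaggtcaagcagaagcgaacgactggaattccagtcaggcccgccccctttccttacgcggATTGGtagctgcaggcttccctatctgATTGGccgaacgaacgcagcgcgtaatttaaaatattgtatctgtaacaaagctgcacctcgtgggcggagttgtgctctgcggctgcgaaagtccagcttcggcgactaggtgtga
CCNB2 and PLK1 share a CHR at -29, and SPC25 has matches at -247 and -3. In the PTTG1 window a CCAAT box and its reverse overlap as a single capital run. Genes with a CHR fell between shAPE1 and shCtrl in 21 of 25 cases and genes with a window and no CHR in 9 of 11, both with a median of -0.46. Of all genes, 18.8% fell there. Between rABS and Parental, 19 of the 25 rose and 2 fell (median 0.56), and of the 11 without, 5 rose and 4 fell (median -0.03). Of all genes, 29.9% rose and 29.9% fell in that comparison. Whether genes with and without a CHR differ in their change was not tested. Only TTTGAA was searched as the CHR, so the 11 genes without a CHR lack this word. Other forms of the element were not searched. A match is a run of letters and not a measured binding site.

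**Figure D3:**
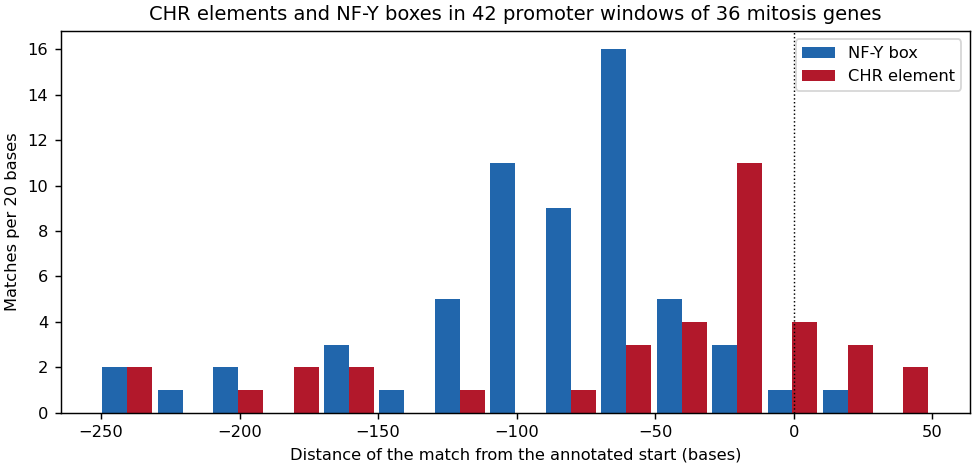
Number of CHR elements and NF-Y (CCAAT) boxes per 20 bases of distance from the annotated start, over the 42 promoter windows of 36 mitosis genes; negative distances lie before the start. CHR matches gather just before the start (median -29) and CCAAT boxes further upstream (median -76.5).

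The cyclins, CDK1 and FOXM1 set the entry into mitosis, and all 5 were lower in shAPE1 than in shCtrl. CDK1 (chromosome 10, 60778331 to 60794852, plus strand, GRCh38) encodes the kinase itself. Its level was 38.5, 35.7 and 39.9 CPM in shAPE1 and 64, 48.7 and 53.5 CPM in shCtrl, a fall to 68.8% (log2 -0.54, SE 0.09, adjusted p = 1.63e-05). In rABS it was 62.8, 65.3 and 68.2 CPM and in Parental 37, 42 and 38.4 CPM, a 1.67-fold rise (adjusted p = 2.22e-08). The shAPE1 libraries lay within the Parental range or just below it. FOXM1, the transcription factor that activates G2 and mitosis genes, had 122, 142 and 142 CPM in shAPE1 against 165, 172 and 176 CPM in shCtrl. It had 209, 199 and 208 CPM in rABS against 103, 103 and 108 CPM in Parental, a 1.96-fold rise (log2 0.97, SE 0.07, adjusted p = 1.02e-13). Its 4 groups did not overlap. CCNA2, cyclin A2, which acts from S phase into early mitosis, rose 1.54-fold between rABS and Parental and fell to 72.9% between shAPE1 and shCtrl.

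The B-type cyclins parted between rABS and Parental. CCNB1, cyclin B1, had 109, 112 and 116 CPM in rABS against 80.5, 83.4 and 89.8 CPM in Parental (1.33-fold higher, adjusted p = 8.34e-06). CCNB2, cyclin B2, had 40.7, 38 and 41.5 CPM in rABS against 50.1, 51.7 and 51 CPM in Parental, a fall to 78.7% (log2 -0.35, SE 0.08, adjusted p = 0.000575). So the ratio of CCNB2 to CCNB1, per kilobase of exon, was 0.34, 0.309 and 0.328 in rABS and 0.569, 0.566 and 0.518 in Parental. Both cyclins were lower in shAPE1 than in shCtrl: CCNB1 had 114, 104 and 115 CPM in shAPE1 against 149, 139 and 156 CPM in shCtrl. CCNB2 had 47.2, 44.5 and 48.6 CPM in shAPE1 against 66.9, 57 and 65.2 CPM in shCtrl. In these shCtrl libraries CCNB2 was 1.57-fold above rABS (adjusted p = 1.68e-07), and no shCtrl library overlapped rABS or Parental. CCNB1 was 1.31-fold above rABS there (adjusted p = 4.14e-05). Set against rABS, CCNB1 in shAPE1 was not called (log2 -0.02, adjusted p = 0.845), and CCNB2 was higher (log2 0.22).

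**Figure D4:**
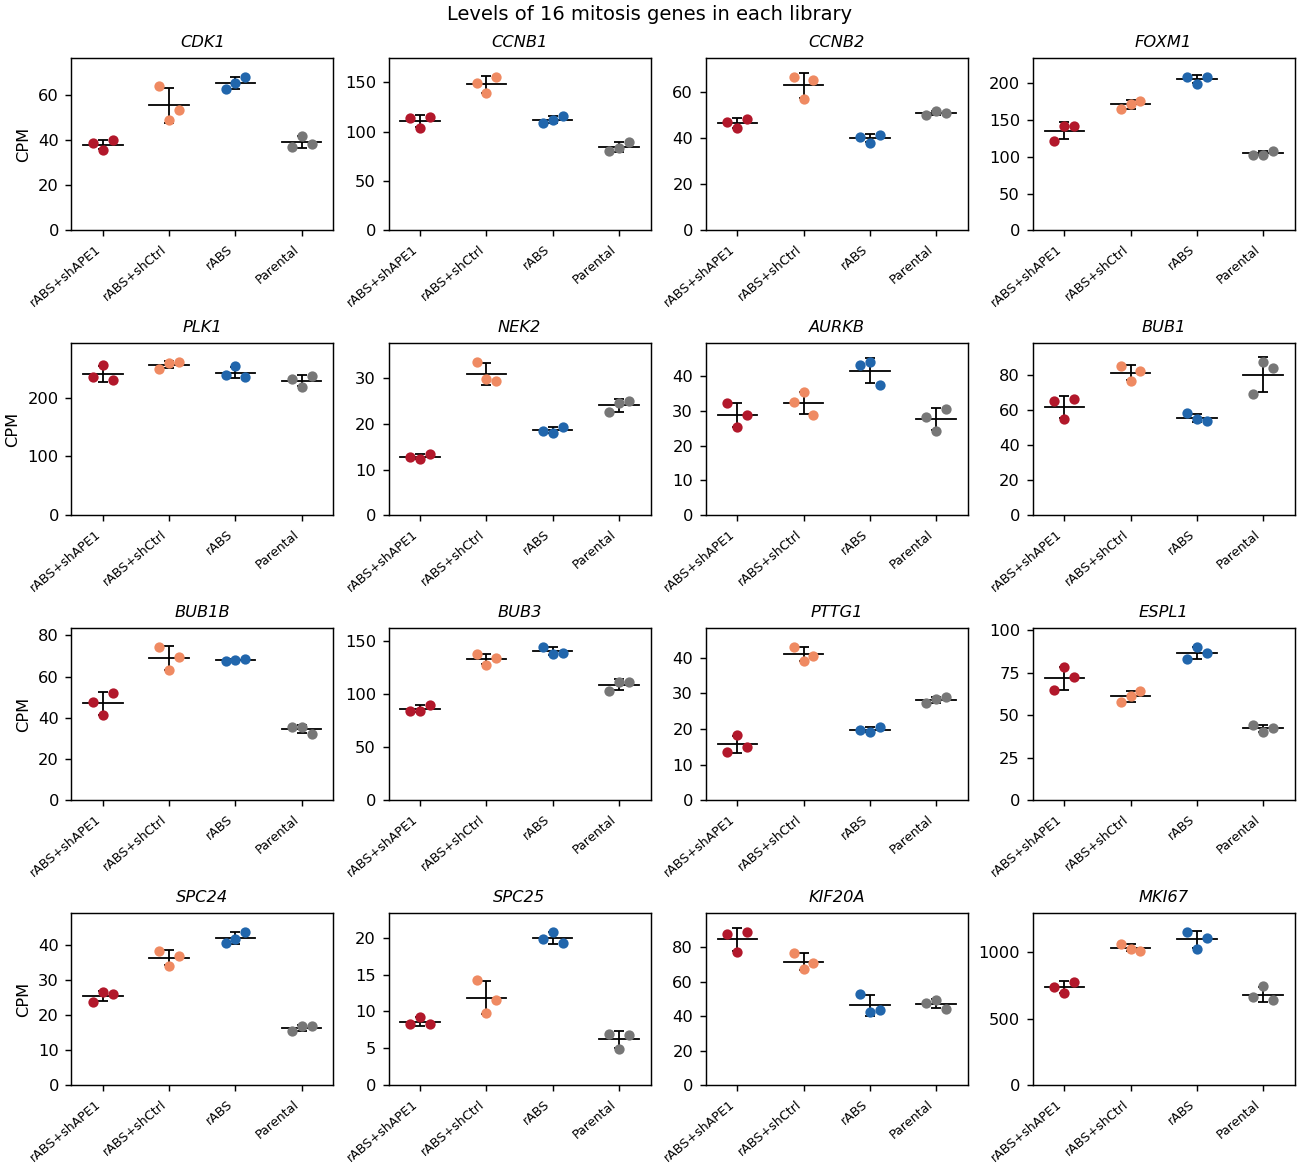
CPM of 16 mitosis genes in each of the 12 libraries (points), with the group mean and SD (lines), for shAPE1, shCtrl, rABS and Parental from left to right; each panel starts at 0. FOXM1, BUB1B, SPC24 and SPC25 are lowest in Parental, NEK2 and PTTG1 are lowest in shAPE1 and highest in shCtrl, and PLK1 is called in none of the comparisons.

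Of the other mitotic kinases, NEK2 moved most and PLK1 least. NEK2 (chromosome 1, 211658657 to 211675630, minus strand) encodes the kinase that separates centrosomes. It had 12.7, 12.3 and 13.5 CPM in shAPE1 against 33.6, 29.7 and 29.3 CPM in shCtrl, a fall to 41.5% (log2 -1.27, SE 0.10, adjusted p = 9.63e-12). It had 18.4, 18 and 19.3 CPM in rABS against 22.5, 24.6 and 25 CPM in Parental, a fall to 77.2%. The 4 groups did not overlap, and shAPE1 was the lowest: 1.88-fold below Parental (adjusted p = 5.4e-09) and 1.45-fold below rABS (adjusted p = 7.1e-05). PLK1, the polo-like kinase of mitotic entry, spindle assembly and cytokinesis, had 234, 255 and 229 CPM in shAPE1 and 249, 258 and 261 CPM in shCtrl. It had 238, 253 and 235 CPM in rABS and 231, 218 and 237 CPM in Parental. None of the 4 comparisons called it, with log2 fold changes from -0.10 to 0.08 and an SE of 0.07 in each. AURKA, the spindle pole kinase aurora A, had 82.3, 77.4 and 88.6 CPM in shAPE1 against 116, 106 and 112 CPM in shCtrl (74.2%, adjusted p = 2.52e-05). In rABS it had 90.7, 103 and 93 CPM, against 77.8, 81.9 and 71.9 CPM in Parental (1.24-fold higher). TTK, the checkpoint kinase MPS1, was not called between rABS and Parental (log2 -0.15) and fell to 72.8% between shAPE1 and shCtrl.

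The chromosomal passenger complex, which corrects faulty attachments and acts in cytokinesis, rose as a whole in the survivors: all 4 genes were higher in rABS than in Parental. Between shAPE1 and shCtrl, INCENP and BIRC5 fell and AURKB and CDCA8 were not called; whether these genes differ in their change was not tested. Against rABS all 4 were lower in shAPE1, with log2 fold changes of -0.32 for INCENP, -0.44 for BIRC5, -0.52 for AURKB and -0.36 for CDCA8. INCENP, the scaffold, had 168, 169 and 166 CPM in rABS against 101, 88.4 and 95.8 CPM in Parental (1.76-fold higher, log2 0.82, SE 0.07, adjusted p = 3.43e-12). It had 136, 129 and 137 CPM in shAPE1 against 163, 174 and 166 CPM in shCtrl, a fall to 80.2%. BIRC5, survivin, had 37.5, 33.3 and 36.9 CPM in shAPE1 against 53.9, 49.6 and 51.4 CPM in shCtrl (69.6%, adjusted p = 2.99e-05). Its rABS values of 42.3, 55.5 and 48 CPM lay above the 37.9, 34.6 and 38.9 CPM of Parental. AURKB, the kinase subunit aurora B, had 32.3, 25.3 and 28.9 CPM in shAPE1 and 32.5, 35.3 and 28.9 CPM in shCtrl, which overlapped (log2 -0.16, SE 0.11, adjusted p = 0.259). It had 43.2, 44.1 and 37.3 CPM in rABS against 28.3, 24.1 and 30.5 CPM in Parental (1.51-fold higher). For AURKB and CDCA8, which encodes borealin, shCtrl was below rABS, to 77.8% (adjusted p = 0.00655) and 78.9% (adjusted p = 0.00153). The AURKB call between shCtrl and rABS ended without shCtrl replicate 3 (log2 -0.29, adjusted p = 0.0646). For shAPE1 against rABS, the adjusted p of the fall was 0.000112 for AURKB and 0.000687 for CDCA8.

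All 4 spindle checkpoint genes were lower in shAPE1 than in shCtrl. BUB1 and BUB1B moved in opposite directions between rABS and Parental. BUB1B, which encodes BubR1 of the inhibitor that holds the APC/C, had 67.6, 67.9 and 68.6 CPM in rABS against 35.4, 35.7 and 32.4 CPM in Parental (1.97-fold higher, log2 0.98, SE 0.09, adjusted p = 2.48e-11). BUB1, the kinase that marks centromeric chromatin and recruits the other checkpoint proteins, had 58.1, 54.8 and 54 CPM in rABS against 69, 87.7 and 83.9 CPM in Parental, a fall to 69.2% (adjusted p = 3.66e-06). Per kilobase, the ratio of BUB1 to BUB1B was thus 0.637, 0.599 and 0.584 in rABS and 1.45, 1.82 and 1.92 in Parental. Between shAPE1 and shCtrl the ratio was 1.01, 0.986 and 0.947 in shAPE1 and 0.849, 0.903 and 0.88 in shCtrl. BUB1B itself had 47.8, 41.2 and 51.9 CPM in shAPE1 against 74.5, 63 and 69.4 CPM in shCtrl. For BUB1 these were 65, 54.8 and 66.3 CPM in shAPE1 and 85.2, 76.7 and 82.3 CPM in shCtrl. BUB1 in shCtrl was thus 1.46-fold above rABS (adjusted p = 7.65e-06) and overlapped Parental. Set against rABS, BUB1 in shAPE1 was not called (log2 0.16, adjusted p = 0.138), and BUB1B, BUB3 and MAD2L1 were lower. BUB3, the partner of both, had 84.6, 84.6 and 90.2 CPM in shAPE1 against 138, 128 and 134 CPM in shCtrl, a fall to 65% (log2 -0.62, SE 0.07, adjusted p = 7.56e-09). Its levels of 145, 138 and 139 CPM in rABS stood above 103, 112 and 112 CPM in Parental, and the shAPE1 libraries lay below all of these. MAD2L1, which encodes the checkpoint protein MAD2, rose 1.94-fold between rABS and Parental and fell to 68.1% between shAPE1 and shCtrl.

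Securin and separase, the lock and the blade of anaphase, moved oppositely between rABS and Parental. PTTG1 (chromosome 5, 160421822 to 160428744, plus strand) encodes securin and had the largest fall of the 43 with the hairpin: 13.7, 18.3 and 15.1 CPM in shAPE1 against 43.1, 39.2 and 40.5 CPM in shCtrl, to 38.3% (log2 -1.38, SE 0.10, adjusted p = 1.47e-12). It had 19.6, 19.3 and 20.7 CPM in rABS against 27.3, 28.3 and 28.9 CPM in Parental, to 70.5% (adjusted p = 7.19e-05). The groups did not overlap, and shCtrl stood 2.06-fold above rABS (adjusted p = 8.78e-10), so the fall in shAPE1 was 1.27-fold against rABS (adjusted p = 0.00752) and 2.61-fold against shCtrl. ESPL1 (chromosome 12, 53268299 to 53293643, plus strand) encodes separase, the cohesin protease. It had 64.8, 78.2 and 72.3 CPM in shAPE1 against 57.7, 61.6 and 64.3 CPM in shCtrl, a 1.17-fold rise (log2 0.23, SE 0.08, adjusted p = 0.0224). That rise was not called without shCtrl replicate 1 (adjusted p = 0.113), shCtrl replicate 2 (0.0502), shAPE1 replicate 2 (0.136) or shAPE1 replicate 3 (0.0599). In rABS it had 83.1, 90.4 and 86.5 CPM against 44.5, 40.1 and 42.3 CPM in Parental, 2.05-fold higher (adjusted p = 9.67e-13). Against rABS, shAPE1 held less ESPL1 (log2 -0.27, adjusted p = 0.0046), so there securin and separase both fell.

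The ratio of PTTG1 to ESPL1, per kilobase of exon, does not depend on library scaling. It was 0.93, 1.03 and 0.925 in shAPE1 and 3.3, 2.82 and 2.78 in shCtrl. In rABS it was 1.04, 0.944 and 1.06, and in Parental 2.71, 3.12 and 3.01. The shAPE1 and rABS libraries overlapped near 1, and the shCtrl and Parental libraries overlapped near 3. The size of the ratio depends on the annotated exon lengths, which are the same in every group. This pair was picked with its values known.

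The APC/C activator and its ubiquitin-conjugating enzyme rose in the survivors and fell with the hairpin. UBE2C, which encodes that enzyme, had 71.1, 75.3 and 71.1 CPM in shAPE1 against 104, 108 and 102 CPM in shCtrl (69.5%, adjusted p = 5.61e-06). It had 141, 159 and 132 CPM in rABS against 84.4, 70.2 and 91.6 CPM in Parental (1.76-fold higher, adjusted p = 3.59e-10). shCtrl lay below rABS, to 72.4% (adjusted p = 3.22e-05), and shAPE1 was 1.99-fold below rABS. CDC20, the activator, rose 1.34-fold between rABS and Parental and fell to 73% between shAPE1 and shCtrl.

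**Figure D5:**
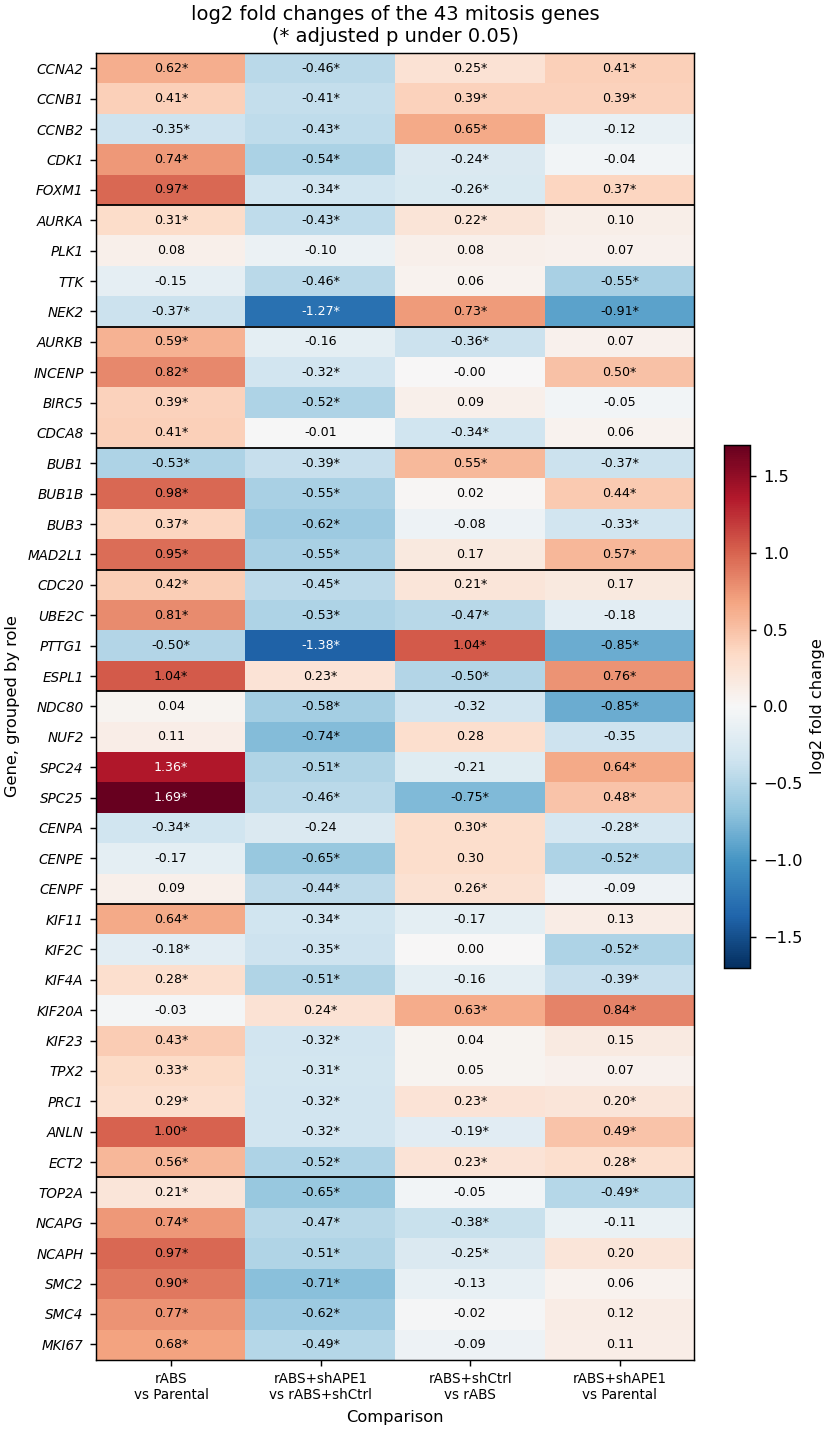
log2 fold changes of the 43 genes (rows, grouped by role) in 4 comparisons (columns); red is higher and blue lower in the first-named group, and an asterisk marks adjusted p under 0.05. The first column is mostly red (30 rises, 6 falls) and the second mostly blue (37 falls, 2 rises).

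Between rABS and Parental, kinetochore and centromere genes showed the largest rises of the 43 beside genes that were not called or fell. The NDC80 complex, which grips microtubules, has 4 subunits. SPC25 (chromosome 2, 168834132 to 168913371, minus strand) had 19.8, 20.8 and 19.2 CPM in rABS against 6.99, 4.96 and 6.78 CPM in Parental, 3.23-fold higher (log2 1.69, SE 0.15, adjusted p = 8.25e-12). SPC24 (chromosome 19, 11131520 to 11155808, minus strand) had 40.4, 41.7 and 43.7 CPM in rABS against 15.4, 16.8 and 16.8 CPM in Parental, 2.56-fold higher (adjusted p = 5.51e-14). These subunits form the end of the complex that faces the chromosome. The microtubule-binding subunits were not called: NDC80 had 20.7, 16.8 and 22 CPM in rABS against 18.3, 20.2 and 19.1 CPM in Parental. NUF2 had 10, 12.3 and 12.7 CPM in rABS against 11.6, 10.6 and 10.4 CPM in Parental. The ratio of SPC25 to NDC80 per kilobase was 1.87, 2.43 and 1.7 in rABS and 0.745, 0.48 and 0.694 in Parental, with no overlap.

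With the hairpin all 4 subunits were lower than in shCtrl. NDC80 had 12.9, 7.88 and 11.1 CPM in shAPE1 against 17.4, 14.5 and 16 CPM in shCtrl (66.9%, adjusted p = 0.00107). NUF2 had 9.54, 5.06 and 10.9 CPM in shAPE1 against 13.1, 13.9 and 15.5 CPM in shCtrl (59.9%, log2 -0.74, SE 0.17, adjusted p = 0.00066). For both, shAPE1 replicate 2 was the lowest library, and NUF2 rested on 90 counts there. SPC24 had 23.8, 26.6 and 26 CPM in shAPE1 against 38.1, 34 and 36.9 CPM in shCtrl (70%, adjusted p = 2.98e-05). SPC25 had 8.29, 9.28 and 8.25 CPM in shAPE1 against 14.3, 9.8 and 11.5 CPM in shCtrl (72.8%, adjusted p = 0.0112), and was not called without shCtrl replicate 1 (log2 -0.30, adjusted p = 0.129). shCtrl held less SPC25 than rABS, at 59.3% (adjusted p = 3.59e-05).

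CENPA, the histone that marks centromeres, fell to 79% in rABS against Parental (adjusted p = 0.0103), a call that ended without Parental replicate 1 (adjusted p = 0.108) or rABS replicate 3 (0.094). It overlaps SLC35F6 on the same strand, which fell by 1.01 on the log2 scale in that comparison. CENPE, a kinetochore motor, was not called there (log2 -0.17). It fell to 63.6% between shAPE1 and shCtrl (adjusted p = 0.02), with 13 CPM in shAPE1 replicate 2 against 25.3 and 25.1 CPM in the other two, and was not called without shCtrl replicate 1 (adjusted p = 0.0853). CENPF, a large coat protein of the kinetochore, fell to 73.6% between shAPE1 and shCtrl and was not called between rABS and Parental.

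Spindle motors and cytokinesis genes mostly followed the general pattern, and KIF20A did not. KIF20A (chromosome 5, 138178719 to 138187715, plus strand), the cytokinesis kinesin MKLP2, had 87.4, 76.8 and 88.8 CPM in shAPE1 against 76.7, 67.3 and 70.5 CPM in shCtrl, 1.18-fold higher (log2 0.24, SE 0.09, adjusted p = 0.0273). This rise was not called without shCtrl replicate 2 (adjusted p = 0.128), shCtrl replicate 3 (0.0928), shAPE1 replicate 1 (0.107) or shAPE1 replicate 3 (0.119). It had 53, 42.2 and 43.3 CPM in rABS and 47.7, 49.3 and 44.3 CPM in Parental, which overlapped. Its larger step was in the transduced cells: shCtrl was 1.55-fold above rABS (adjusted p = 9.93e-07), and shAPE1 was 1.83-fold above rABS and 1.79-fold above Parental (adjusted p = 9.89e-10). KIF20A overlaps CDC23 and BRD8 on the other strand. Between shAPE1 and shCtrl, CDC23 rose by log2 0.48 and BRD8 was not called (log2 -0.05). Between shCtrl and rABS, neither CDC23 (log2 -0.21) nor BRD8 (0.11) was called. Between rABS and Parental, CDC23 rose (0.46) and BRD8 fell (-0.39), while KIF20A was not called. Whether shared reads bear on the KIF20A values was not tested.

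ANLN, which encodes the actin-binding ring protein anillin, had 499.7, 489.7 and 514 CPM in rABS against 243, 264 and 244 CPM in Parental, 2-fold higher (log2 1.00, SE 0.07, adjusted p = 1.04e-13). In shAPE1 it had 356, 315 and 384 CPM against 460.4, 408 and 445 CPM in shCtrl (80.3%, adjusted p = 0.000555). ECT2, the exchange factor that activates RhoA at the furrow, had 117, 106 and 113 CPM in shAPE1 against 180.5, 149 and 151 CPM in shCtrl (70%, adjusted p = 7.79e-06). It had 133, 126 and 149 CPM in rABS against 87.8, 104 and 85.3 CPM in Parental (1.47-fold higher). KIF11, the bipolar spindle motor, rose 1.56-fold between rABS and Parental and fell to 78.9% between shAPE1 and shCtrl. KIF23 and PRC1, of the central spindle, rose 1.35- and 1.22-fold and fell to 80% and 80.2%. TPX2, a spindle assembly factor, and KIF4A, a chromosome-bound kinesin, rose 1.26- and 1.22-fold and fell to 80.8% and 70.4%. KIF2C, a microtubule-depolymerising kinesin, was at 88.1% in rABS against Parental, a call (adjusted p = 0.0328) that ended on leaving out any Parental replicate, rABS replicate 1 or rABS replicate 2, with adjusted p from 0.0618 to 0.135. Reads cannot be split between a member and a gene that shares its bases where strand was not used in counting, a setting the sources used here do not state. Besides CENPA and KIF20A this touches CCNA2, FOXM1, KIF4A, ANLN, NCAPG and SMC4.

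Chromosome structure genes and MKI67 were all higher in rABS and all lower in shAPE1. NCAPH, a condensin subunit, had 72.4, 75.4 and 76.5 CPM in rABS against 37.7, 41.6 and 35.1 CPM in Parental, 1.96-fold higher (adjusted p = 4.87e-11). It had 46.9, 39.9 and 45.1 CPM in shAPE1 against 65.7, 54.7 and 67.8 CPM in shCtrl (70.1%). The other condensin genes NCAPG, SMC2 and SMC4 rose 1.67-, 1.87- and 1.7-fold and fell to 72%, 61.3% and 65%. TOP2A, which untangles sister DNA, had 212, 179 and 224 CPM in shAPE1 against 356, 294 and 317 CPM in shCtrl (63.6%, log2 -0.65, SE 0.08, adjusted p = 7.57e-08). Its rise in rABS was small, with 328, 319.6 and 351 CPM against 264, 312 and 289.8 CPM in Parental (1.15-fold, adjusted p = 0.026). That call ended without Parental replicate 1 (adjusted p = 0.0976), Parental replicate 3 (0.05) or rABS replicate 3 (0.104). MKI67, the Ki-67 coat of mitotic chromosomes and a proliferation marker, had 739, 691 and 776 CPM in shAPE1 against 1057, 1021 and 1009 CPM in shCtrl (71.4%, adjusted p = 8.82e-07). It had 1150, 1024 and 1104 CPM in rABS against 658, 745 and 636 CPM in Parental (1.61-fold higher, adjusted p = 2.9e-10). The shAPE1 and Parental libraries overlapped.

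Levels per kilobase of exon use the union of a gene's annotated exons, which can exceed the length of the expressed transcript. Ranks between genes depend on that length. On this scale TPX2 was the highest of the 43 in each group. It stood at 94.5 CPM per kilobase in shAPE1, 117 in shCtrl, 113 in rABS and 90 in Parental. UBE2C reached 112 CPM per kilobase in rABS. CENPE had the lowest such level of the 43 except in Parental, where MAD2L1 was lowest at 3.11. CENPE stood at 2.24 CPM per kilobase in shAPE1, 3.52 in shCtrl, 2.85 in rABS and 3.21 in Parental.

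The 43 genes were set beside 107 other genes of mitosis, among them subunits of the APC/C, cohesin, condensin and the kinetochore. Of these, 71 rose and 12 fell between rABS and Parental (median log2 0.46), where 29.9% of all genes rose and 29.9% fell. Between shAPE1 and shCtrl, 1 rose and 73 fell (median -0.38), where 17.8% of all genes rose and 18.8% fell. The 16 APC/C subunits and inhibitors among them split in the second comparison into 4 lower, 1 higher and 11 not called (median -0.05). The higher one was CDC23, a core subunit, at 52.2 ± 0.913 CPM in shAPE1 and 37.3 ± 0.484 CPM in shCtrl (SD, n = 3). All 7 other kinesins fell there. CIT, the citron kinase of abscission, was at 54.2 ± 3.5 CPM in shAPE1 and 115 ± 2.17 CPM in shCtrl, 2.12-fold lower (adjusted p = 7.95e-14). CEP55, another abscission factor, was 1.88-fold lower (adjusted p = 6.44e-11). Between rABS and Parental, RBL1, which encodes the DREAM protein p107, was at 84.4 ± 4.81 CPM in rABS and 15.7 ± 1.96 CPM in Parental, 5.37-fold higher (adjusted p = 4.04e-20). RBL2, which encodes its relative p130, was at 94.1 ± 5.56 CPM in rABS and 185 ± 11.5 CPM in Parental, 1.97-fold lower (adjusted p = 6.35e-14). ZWINT, a kinetochore protein, was 4.4-fold higher and CDC25B, a phosphatase that activates CDK1, 1.69-fold lower.

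DNA replication genes had larger median changes in the same directions. Of 32 such genes, 30 rose between rABS and Parental (median 1.59), where 29.9% of all genes rose. All 32 fell between shAPE1 and shCtrl (median -0.74), where 18.8% of all genes fell. Between shCtrl and rABS, 26 of the 32 fell and 1 rose (median -0.50), where 18.6% of all genes fell and 17.9% rose. The 43 mitosis genes had a median of 0.02 there. Of the 107 other mitosis genes, 38 fell and 17 rose there (median -0.13), among them 11 of 16 outer kinetochore and checkpoint genes that fell (median -0.41). Whether the share of cycling cells moved with these groups was not tested.

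In earlier work on these fold changes, the word TGCATTC in 3′ untranslated regions, with its shifted forms GCATTCT (1 base later) and CTGCATT (1 base earlier), marked genes that fell with the hairpin, so the fall of genes with a match is no new result. Of the 43 genes, 4 held a match in their longest 3′ untranslated region (9.3%, against 29.1% of 12471 tested genes): BUB1, BUB3, MKI67 and PTTG1. NEK2, the second largest fall, held none. All 4 fell between shAPE1 and shCtrl (median -0.55), and so did 33 of the 39 without a match (median -0.46). Over all genes, 36.7% of those with a match and 15.9% of those without fell. APEX1 itself, the target of the hairpin, holds such words at 2 places. Capitals mark the matched words, on the transcript strand in GRCh38.
PTTG1, chr5:160428714-160428743: gtattaataaaGCATTCTttaacagattct
BUB1, chr2:110637700-110637729: ttcagacatgaGCATTCTctagaaatcact
BUB3, chr10:123164027-123164056: ttgatggtttgCTGCATTaaaggtatttgg
BUB3, chr10:123164162-123164191: aaaaatcccttTGCATTCTttctggacctt
MKI67, chr10:128096719-128096748: atgagggccgaCTGCATTtcctggttactc
APEX1, chr14:20457418-20457447: ctctctgttacCTGCATTgtgtgacagcaa
APEX1, chr14:20457579-20457608: tcagagaaatCTGCATTCTatttctcatgt
The hairpin's own sequence was not used here, so these words were not compared with it.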

How the data were processed

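Polyadenylated RNA of OE33 cells was sequenced in 12 libraries, described as 3 independent biological replicates per group. The deposited values are the authors' raw counts per Ensembl gene. Reads were trimmed with Trimmomatic 0.36, aligned to GRCh38 with STAR 2.5.2b and counted with featureCounts of Subread 1.5.2, per the submitters' processing notes. Which annotation release was used, whether counting used strand, and how multi-mapped reads were treated is not given in the sources used here. The overlap of 1 listed gene with another gene is not reported here. Near-identical copies of the genes described held at most 0.878% of a gene's own counts.

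Genes were kept with edgeR's filterByExpr (minimum count 10, minimum total 15), which left 15805 of 57500 (35464 had a count). Libraries were scaled by TMM and fitted together with a term per group in edgeR 4.0.16 (R 4.3.3), with the robust quasi-likelihood test and Benjamini-Hochberg adjustment over all 15805 genes. A gene was called at an adjusted p under 0.05. The standard error is the log2 fold change divided by the square root of F. Gene positions, exon lengths and the longest 3′ untranslated region per gene came from GENCODE 29 on GRCh38, and promoter windows from RefSeq. Exon length is the union of all annotated exons of a gene. The script was tested on simulated data. Library totals of 15736087 to 23010377 counts set the precision, and fold changes of genes with few counts, such as NUF2, carry larger errors.

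The genes and lists were chosen with earlier results of these data known. Values in every library are given for the 3 called genes with the largest rise and the largest fall in each comparison, for the called gene with the smallest adjusted p in each role between rABS and Parental and between shAPE1 and shCtrl, and for CDK1, CCNB1, AURKB, PLK1, FOXM1 and MKI67. The other mitosis genes named are up to 2 per direction and comparison by adjusted p. Pairs set as ratios, the printed sequences and remaining genes were chosen with their values in view. Samples were not treated as paired by replicate number. Deviations of same-numbered libraries correlated at -0.167 to 0.109 and those of different-numbered libraries at -0.133 to 0.127. Such weak correlations cannot settle whether the numbers pair the samples. Alternatives were RLE and upper-quartile scaling, DESeq2 1.42.0, limma-voom (limma 3.58.1), a looser filter and a filter at a mean of 1 CPM, only the 6 libraries compared, a replicate block and leaving out each library. rABS as the control of shAPE1 was added after the data were seen.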

Additional observations from a re-analysis of the deposited data

How the results depend on the processing

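Under other scalings, DESeq2, limma-voom, other filters and only the 6 libraries compared, the counts of the 43 genes called stayed within 1.5 times, except that 1 gene in place of 2 was higher in shAPE1 than in shCtrl with no filter beyond 1 count (ESPL1 then had an adjusted p of 0.0541). With single libraries left out, 29 to 30 were higher and 4 to 6 lower in rABS than in Parental. Between shAPE1 and shCtrl 0 to 2 were higher, with 0 without shCtrl replicate 2 and without shAPE1 replicate 3, and 35 to 37 were lower. Between shCtrl and rABS 7 to 14 were higher and 7 to 12 lower, and between shAPE1 and Parental 13 to 17 were higher and 9 to 12 lower. The cause was not tested.

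A replicate block gave 30 higher and 5 lower between rABS and Parental, and 2 and 37 between shAPE1 and shCtrl. It gave 13 and 10 between shCtrl and rABS, and 13 and 11 between shAPE1 and Parental. Whether the numbers pair the samples could not be settled, so the block is given as a check only. With rABS in place of shCtrl as the control of shAPE1, 2 genes were higher and 34 lower, and the sign turned for 3 genes called against shCtrl, CCNB2 (log2 0.22), BUB1 (0.16) and ESPL1 (-0.27), and for CENPA (0.06), which was called against neither.

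Of the called genes, 33 of 36 between rABS and Parental, 35 of 39 between shAPE1 and shCtrl, 19 of 24 between shAPE1 and Parental and 12 of 23 between shCtrl and rABS were called under every one of these settings other than rABS as the control. Calls ended for CENPA, KIF2C and TOP2A in the first, and for CENPE, ESPL1, KIF20A and SPC25 in the second; CENPE had an adjusted p of 0.0777 with only the 6 libraries.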
